A study of Mus musculus with 25 samples.

Results

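Transcripts of 10 leukocyte integrin genes were followed in macrophages sorted from mouse glioblastoma, an aggressive brain tumour. The genes were taken by name: the α subunit genes Itga4, Itga6, Itgal, Itgam, Itgax and Itgav and the β subunit genes Itgb1, Itgb2, Itgb5 and Itgb7. All 10 were among the 30749 genes of the deposited table, and all 10 were among the 17216 that passed a filter of at least 10 normalised counts in at least 3 libraries. The sorted cells were monocyte-derived macrophages (MDM, whose precursors reach the tumour with the blood) and microglia, which are macrophages native to the brain. The tumours carried the label type 1 or type 2 and were either spontaneous or transplanted. MDM gave 2 libraries from type 1 spontaneous, 4 from type 1 transplanted, 1 from type 2 spontaneous and 2 from type 2 transplanted tumours, and microglia gave 3 from each of these 4 classes. The series title calls the models lineage-based, but the alleles, the promoter, the strain, the age of the animals and the sort gate are not given in the sources used here. Whether the libraries within a group are from different animals is not stated, and the p-values therefore reflect only library-to-library spread, which may be technical. Normal brain microglia were not analysed here.

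Integrins are cell surface receptors made of 1 α and 1 β subunit, each the product of its own gene. They hold cells to matrix or to other cells, and many stay bent and inactive until talin and kindlin bind the tail of the β subunit from inside the cell. On leukocytes the β2 subunit pairs with αL (LFA-1), αM (Mac-1, or CD11b), αX (CD11c) or αD, and the pairs bind ICAMs and complement fragments. The α4 subunit (CD49d) pairs with β1 or β7 and binds VCAM-1, MAdCAM-1 and fibronectin, and it serves in the brain as a common surface marker of cells recruited from the blood. The αV subunit pairs with β1, β3, β5, β6 or β8 and binds RGD-containing ligands such as vitronectin, and α6 pairs with β1 or β4 and binds laminins.

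The libraries held between 26530069 and 50365607 reads, and 16297 to 21435 genes had at least 1 read. All 12 genes of a microglia list that includes Tmem119 and P2ry12 were lower in MDM than in microglia. All 12 genes of an MDM list that includes Ccr2 and Ly6c2 were higher, so both lists differed in the direction of the sort labels. The libraries labelled MDM also held transcripts of lymphocytes. The 15 measured genes of a 17-gene T and NK cell list summed to 267992 to 319074 normalised counts in the 4 type 1 transplanted MDM libraries and to 325749 in type 2 transplanted MDM library 1, against 13956 to 45062 in the other 4 MDM libraries and 103 to 6654 in microglia. The MDM list summed to 104419 to 141682 in type 1 transplanted MDM and to 208279 in type 2 transplanted MDM library 1. These sums lay below the T and NK cell sums of the same libraries. In the other 4 MDM libraries the MDM list summed to 193222 to 640360. The lists hold different genes, and their sums are not shares of cells. The 9-gene B cell list summed to 2487 to 52854 in MDM and 2913 to 6252 in microglia, and the 10-gene dendritic cell list to 15216 to 76581 and 268 to 2576. Microglia transcripts were also uneven among MDM libraries: the microglia list summed to 13782 to 22351 in type 1 transplanted MDM and to 35855 in type 2 transplanted MDM library 1, against 104399 to 245626 in the other 4 MDM libraries and 664811 to 1521700 in microglia. The 10-gene neutrophil list summed to 104 to 6159 in MDM and 16.4 to 5172 in microglia, highest in type 1 transplanted MDM library 1 and type 2 transplanted microglia library 2, and its defining gene Ly6g was at 0 in 4 of 9 MDM and 9 of 12 microglia libraries. The 7-gene platelet list summed to 70.7 to 730 in MDM and 109 to 1001 in microglia, with Ppbp at 0 in 6 and 11 libraries. In sorted pools of this kind fewer cells of a type and less RNA per cell cannot be told apart.

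The members lie on 6 chromosomes of GRCm38. Itgal (chromosome 7, 127296139 to 127335137), Itgam (128062640 to 128118491) and Itgax (128129526 to 128150657) lie on the same arm of chromosome 7 in the same orientation. Itga4, Itga6 and Itgav lie on chromosome 2, Itgb1 on chromosome 8, Itgb2 on 10, Itgb7 on 15 and Itgb5 on 16. Exons of Itga4 overlap those of the antisense gene Cerkl, and the strand of the reads was not given. Cerkl stood at 26.0 to 83.2 normalised counts in MDM and 0 to 6.33 in microglia, far below the values of Itga4 in MDM. Exons of Itgam overlap the annotated gene Gm49368, and reads of that overlap could belong to either gene.

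The RefSeq promoter table (GRCm38.p6, 250 bases before to 50 after a start site) held 7 of the 10 members: Itga4, Itgav, Itgam, Itgax, Itgb1, Itgb7 and Itgb5. Those of Itgb7 (gene 102215994 to 102233405, minus strand) and Itgav (window from 83724147, gene from 83722303, plus strand) lie inside the annotated gene. Their start sites are therefore not the outermost annotated ones. The windows of 2 members higher in MDM, Itga4 and Itgb7, and of 2 higher in microglia, Itgam and Itgb5, are printed 5′ to 3′ on the strand of the gene because members of each pair differed in the same direction between the cell types. Capitals mark matches on either strand to the PU.1-type purine-rich box GAGGAA, the RUNX core TGTGGT and the GC box GGGCGG; no match overlapped a match to another motif.
Itga4, chr2:79255176-79255475, plus strand: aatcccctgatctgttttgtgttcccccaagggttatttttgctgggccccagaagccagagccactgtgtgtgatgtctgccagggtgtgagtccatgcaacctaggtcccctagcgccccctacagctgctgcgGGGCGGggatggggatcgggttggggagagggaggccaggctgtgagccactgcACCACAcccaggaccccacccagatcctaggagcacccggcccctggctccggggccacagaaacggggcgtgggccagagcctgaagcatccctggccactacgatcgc
Itgb7, chr15:102231886-102232185, minus strand: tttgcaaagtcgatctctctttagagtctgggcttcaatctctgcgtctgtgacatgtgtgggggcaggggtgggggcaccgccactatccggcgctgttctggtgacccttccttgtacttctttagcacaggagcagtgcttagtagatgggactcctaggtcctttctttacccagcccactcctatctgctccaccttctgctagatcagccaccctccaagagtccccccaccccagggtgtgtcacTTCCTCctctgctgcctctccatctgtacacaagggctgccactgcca
Itgam, chr7:128062390-128062689, plus strand: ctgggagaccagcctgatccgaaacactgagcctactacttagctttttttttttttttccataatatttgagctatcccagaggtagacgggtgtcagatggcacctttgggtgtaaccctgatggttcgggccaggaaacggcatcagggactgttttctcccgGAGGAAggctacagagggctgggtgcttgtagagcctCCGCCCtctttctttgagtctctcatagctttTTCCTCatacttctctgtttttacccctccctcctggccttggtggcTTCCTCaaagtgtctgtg
Itgb5, chr16:33829415-33829714, plus strand: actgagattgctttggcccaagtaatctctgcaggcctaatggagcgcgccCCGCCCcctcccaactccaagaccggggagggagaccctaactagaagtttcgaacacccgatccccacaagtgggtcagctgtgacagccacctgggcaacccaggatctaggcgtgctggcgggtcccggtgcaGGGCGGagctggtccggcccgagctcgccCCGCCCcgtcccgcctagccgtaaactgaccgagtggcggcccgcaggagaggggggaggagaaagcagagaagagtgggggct
The Itgam window held 3 purine-rich boxes, on both strands, and 1 GC box, and that of Itgb7 held 1 purine-rich box. The Itgb5 window held 3 GC boxes and no purine-rich box, and that of Itga4 held 1 RUNX core and 1 GC box. Of the 32851 promoters in the table, 28.3% held GAGGAA, 16.8% held TGTGGT and 35.7% held GGGCGG. The TATA box TATAAA, found in 13.6% of all promoters, was in none of the 7 member windows, and the AP-1-type site TGAGTCA, found in 5.20%, was in that of Itgax. GC content was 64.3% in the Itga4 window, 56.3% in that of Itgb7, 50.3% in that of Itgam and 65.7% in that of Itgb5, against a median of 52.7% over all promoters. A match describes the letters of these windows and shows no binding.

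Per kilobase of exon, which allows levels of different genes to be compared, the integrin repertoires of the cell types were ordered differently. In microglia the highest median level was that of Itgb5 (28376 normalised counts per kb), then Itgb2 (12382), Itgam (7231), Itgb1 (2565), Itgax (2007), Itga6 (1526), Itgav (267), Itgal (218), Itgb7 (117) and Itga4 (7.29). In MDM the order was Itgb2 (13878), Itgb7 (10251), Itgb1 (5093), Itgal (2690), Itgam (1813), Itgax (1289), Itgb5 (1114), Itga4 (450), Itga6 (219) and Itgav (184). In microglia the range of Itgb5, 18522 to 38111 per kb, lay above that of Itgb2 at 8849 to 17640. The ranges of every other pair of neighbours overlapped in both orders. The plot of levels by library shows the members in every group.

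**Figure D1:**
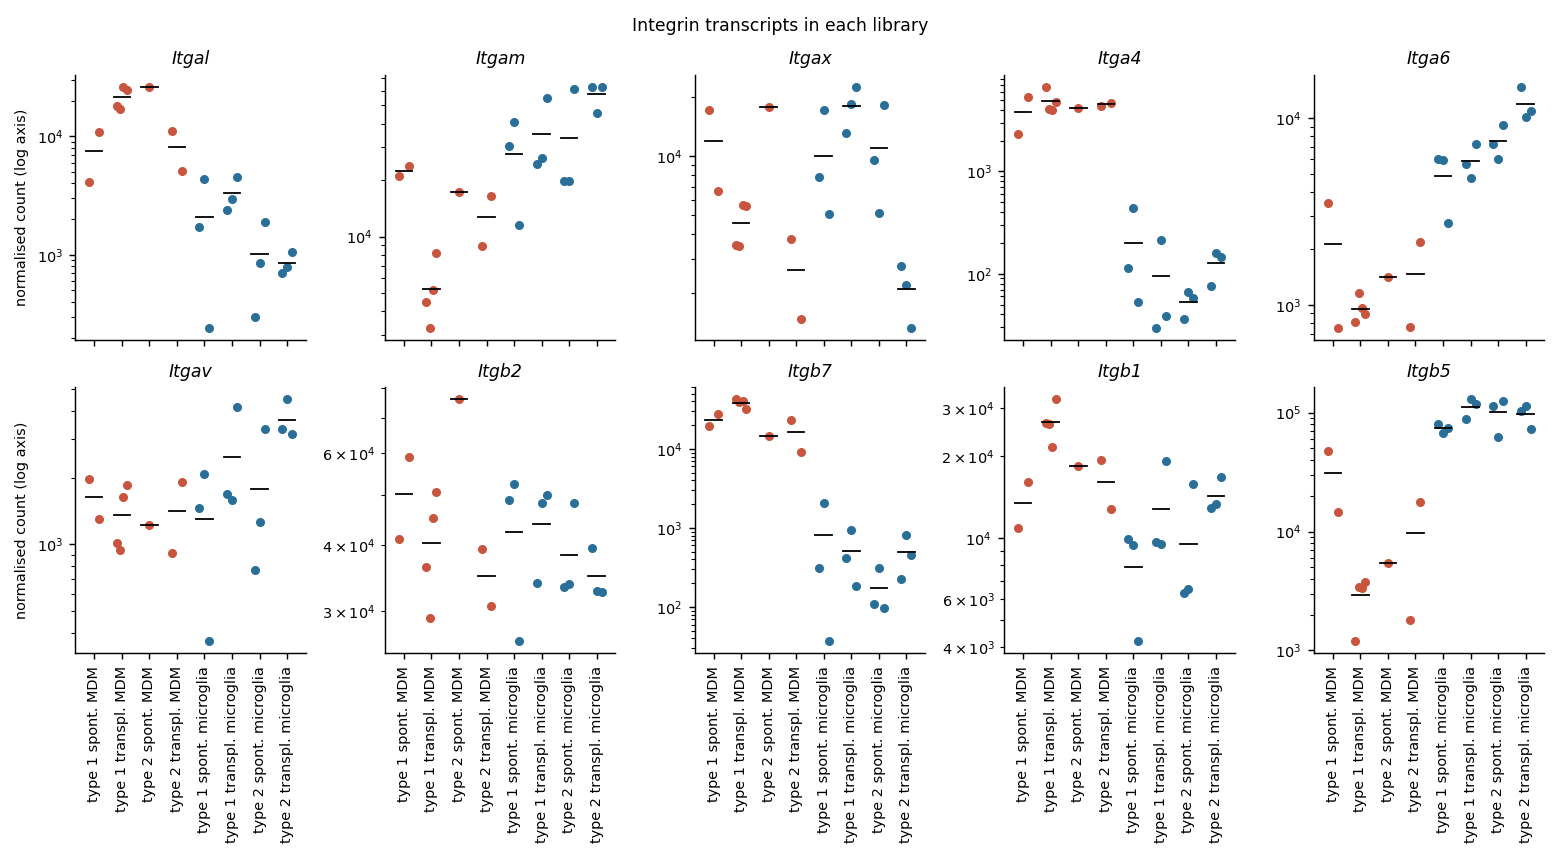
Normalised counts (log axis) of the 10 integrin genes in 21 libraries, grouped by tumour type, model (spont., spontaneous; transpl., transplanted) and cell type; points are libraries (red MDM, blue microglia) and bars are group means. Itga4 and Itgb7 are higher in all 9 MDM libraries than in any of the 12 microglia libraries, and Itgb5 is lower.

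MDM and microglia were compared first, over all tumour classes. The test was limma-trend on log2(normalised count + 1) with 1 mean per group, the 4 tumour classes weighted equally, and a gene was called where its p, adjusted over all 17216 genes by Benjamini-Hochberg, was under 0.05. Of the 10 integrin genes 7 were called, 4 higher in MDM (Itga4, Itgb7, Itgal and Itgb1) and 3 lower (Itgb5, Itga6 and Itgam), while Itgax, Itgav and Itgb2 were not. The comparison called 42.7% of all genes, 23% higher and 19.8% lower, so a call here is common; at an unadjusted p under 0.05 it was 49.8%. The median log2 fold change was 0.07 over the members and 0.07 over all genes tested. Of all calls 53.7% were higher in MDM, a share that was 67.4% after rescaling to the same total and 45.4% after quantile normalization. The 7 called members kept their direction under both scalings.

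Itga4 encodes the α4 subunit CD49d, through which blood leukocytes bind VCAM-1 on inflamed vessels. In MDM it ranged from 2326 to 6726 normalised counts with a median of 4396. In microglia it ranged from 29.4 to 437 with a median of 71.2. The 9 MDM libraries all lay above the 12 microglia libraries. The cell types did not overlap for 3 of the 10 members and for 6.85% of all genes tested, and 3.8% lay higher in MDM. The difference was 48.6-fold (log2 fold change 5.60 ± 0.40 SE, limma-trend adjusted p 1.1e-08). The highest microglia value belonged to type 1 spontaneous library 2, which also had the highest sum of the MDM list among microglia, 87383 against 8131 to 48198 in the other 11, and the lowest sum of the microglia list. CD49d is often used to sort MDM from microglia, and where it is part of a gate its difference is set by the sort.

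Itgb7 encodes the β7 subunit, the partner of α4 in the gut-homing integrin and of αE (CD103). Its level in MDM was 9259.9 to 42229 normalised counts with a median of 27503. In microglia it was 37.1 to 2098 with a median of 314. The libraries of the cell types did not overlap, and the difference was the largest of the 10 members at 69.2-fold (log2 fold change 6.11 ± 0.55, limma-trend adjusted p 1e-07). Type 1 transplanted MDM held 42229, 38906, 40071 and 32253, above the other 5 MDM libraries at 9259.9 to 27503. Itgb7 per kb exceeded Itga4 per kb by 7.25 to 36.9 times in MDM and by 2.54 to 51.4 times in microglia, so the ratios of the cell types overlapped.

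Itgal encodes αL, the subunit of LFA-1 that binds ICAM-1 and is abundant on lymphocytes. MDM libraries held 4079 to 26271 normalised counts with a median of 17163, and microglia 240.2 to 4540.0 with a median of 1392. Type 1 spontaneous MDM library 1 (4079) lay below the highest microglia libraries, type 1 spontaneous library 2 (4327) and type 1 transplanted library 4 (4540.0), and the other 8 MDM libraries lay above all microglia. The log2 fold change was 3.35 ± 0.44 (limma-trend adjusted p 6.6e-06), a 10.2-fold difference. Itgb1, the most widely shared β subunit, stood at 10885 to 32336 with a median of 19431 in MDM and 4201 to 19159 with a median of 9786 in microglia. Its ranges overlapped, and it was 1.75-fold higher in MDM (log2 fold change 0.81 ± 0.22, limma-trend adjusted p 0.007). With the labels' replicate number as a fixed block it was 0.50 and not called (adjusted p 0.063).

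Itgb5 encodes β5, which pairs only with αV and binds vitronectin. Microglia held 62808 to 129235 normalised counts with a median of 96222. MDM held 1199 to 47824 with a median of 3777. Every MDM library lay below every microglia library, as did 3.06% of all genes tested, and the difference was 13.6-fold (log2 fold change -3.77 ± 0.36, limma-trend adjusted p 1.9e-07). Itgav, which encodes its αV partner, ranged from 912 to 1976 in MDM and 368 to 4498 in microglia and was not called (log2 fold change -0.47 ± 0.34, 95% interval -1.18 to 0.25, limma-trend adjusted p 0.29). With the replicate number as a fixed block it was called lower in MDM (-0.93, adjusted p 0.0047). Itgb5 per kb was 47.9 to 418 times Itgav per kb in microglia and 2.46 to 50.4 times in MDM.

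Itga6, which encodes the laminin-binding α6 subunit, was at 749 to 3495 normalised counts in MDM with a median of 957 and at 2739 to 14725 in microglia with a median of 6653. Only type 1 spontaneous MDM library 1 (3495) reached into the microglia range. The log2 fold change was -2.43 ± 0.27 (limma-trend adjusted p 8.7e-07), or 5.38-fold. Itgam, which encodes αM (CD11b), ranged from 3253 to 23634 in MDM with a median of 8931 and from 11543 to 62933 in microglia with a median of 35622. The ranges overlapped, and it was 2.72-fold lower in MDM (log2 fold change -1.44 ± 0.29, limma-trend adjusted p 0.00046). CD11b is widely used to sort both cell types, so a gate on it could have bounded its range in either.

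The common β2 subunit and αX did not pass the test. Itgb2 stood at 29114 to 76013 normalised counts in MDM and 26282 to 52391 in microglia (log2 fold change 0.29 ± 0.18, 95% interval -0.09 to 0.66, limma-trend adjusted p 0.21), and it was called after rescaling to the same total (0.52, adjusted p 0.034) and after quantile normalization (0.62, adjusted p 0.029). Itgax, which encodes CD11c, ranged from 1477 to 17729.6 in MDM and 1328 to 22601 in microglia (log2 fold change -0.15 ± 0.30, 95% interval -0.77 to 0.47, limma-trend adjusted p 0.72), and its sign turned after rescaling to the same total (0.088). The Itgax ranges overlapped widely, while for Itgb2 the MDM libraries at 58920.3 and 76013 (type 1 spontaneous 2 and type 2 spontaneous 3) lay above every microglia library.

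The lymphocyte and microglia list sums went in part with some of these values among the MDM libraries. The comparison was therefore repeated without the 5 MDM libraries whose T and NK cell list summed to 267992 or more. That left type 1 spontaneous libraries 1 and 2, type 2 spontaneous library 3 and type 2 transplanted library 3, and the type 1 transplanted class dropped out. These 4 also had the highest microglia list sums among MDM, 104399 to 245626 against 13782 to 35855 in the 5 left out. The fit therefore changed both contents together and cannot tell them apart. In this comparison 24% of all genes and 5 members were called. Itga4 (log2 fold change 5.41, limma-trend adjusted p 1e-04), Itgb7 (5.76, adjusted p 0.00055) and Itgal (3.37, adjusted p 0.0034) were called higher, at values close to those of all libraries. Itgb5 (-2.68, adjusted p 0.00012) and Itga6 (-2.11, adjusted p 0.0013) were called lower. Itgam (-0.88, adjusted p 0.14) and Itgb1 (0.60, adjusted p 0.22) were no longer called. The T and NK cell list of these 4 MDM libraries still lay above that of all microglia libraries, and the part of that RNA in their Itga4, Itgb7 and Itgal values was not tested. A further fit left out 3 microglia libraries rich in transcripts of other cells (type 1 spontaneous library 2 and type 1 transplanted libraries 1 and 2). It leaves 1 type 1 transplanted microglia library. The members called over all libraries kept their direction, with Itgam at -1.54 and Itgb1 at 0.69. The plot of fold changes sets both fits side by side.

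**Figure D2:**
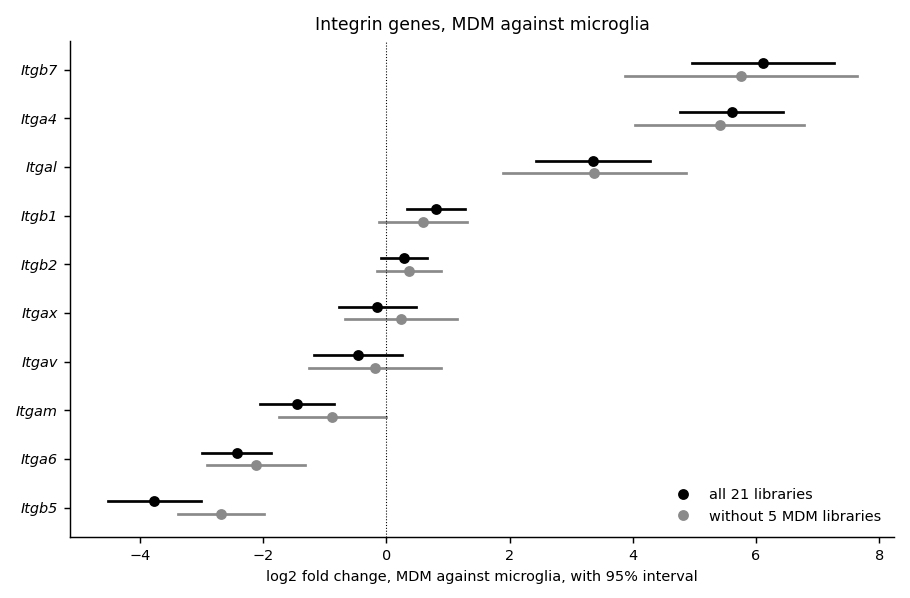
Log2 fold change of each integrin gene in MDM against microglia with its 95% interval from limma-trend, over all 21 libraries (black) and without the 5 MDM libraries rich in T and NK cell transcripts (grey). Itgb7, Itga4 and Itgal keep values between 3.35 and 6.11 in both. Itgb5 moves from -3.77 to -2.68, and Itgam from -1.44 to -0.88. The MDM libraries kept in the grey fit also had the highest microglia list sums among MDM.

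Among the 9 MDM libraries the levels followed the lists of other cells in part. The 4 libraries with a microglia list sum of 104399 or more (type 1 spontaneous 1 and 2, type 2 spontaneous 3 and type 2 transplanted 3) held the 4 highest values of Itgb5, at 47824, 14622, 5437 and 17694 normalised counts, against 1199 to 3777 in the other 5. They held the 4 highest values of Itgam as well, 21008, 23634, 17313 and 16536 against 3253 to 8931. The same 4 libraries also had the lowest T and NK cell list sums among MDM, 13956 to 45062 against 267992 to 325749. How many of all genes separate these libraries in this way is not given here. Itga6 followed less closely, since type 1 spontaneous library 2 had the lowest value of all (749). Itgal was highest in type 1 transplanted library 3 (26271) and type 2 spontaneous library 3 (26172), whose T and NK cell lists summed to 319074 and 45062. The parts of microglial and lymphocyte RNA in these values were not tested. The plot of integrin levels against marker lists shows the 9 libraries.

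**Figure D3:**
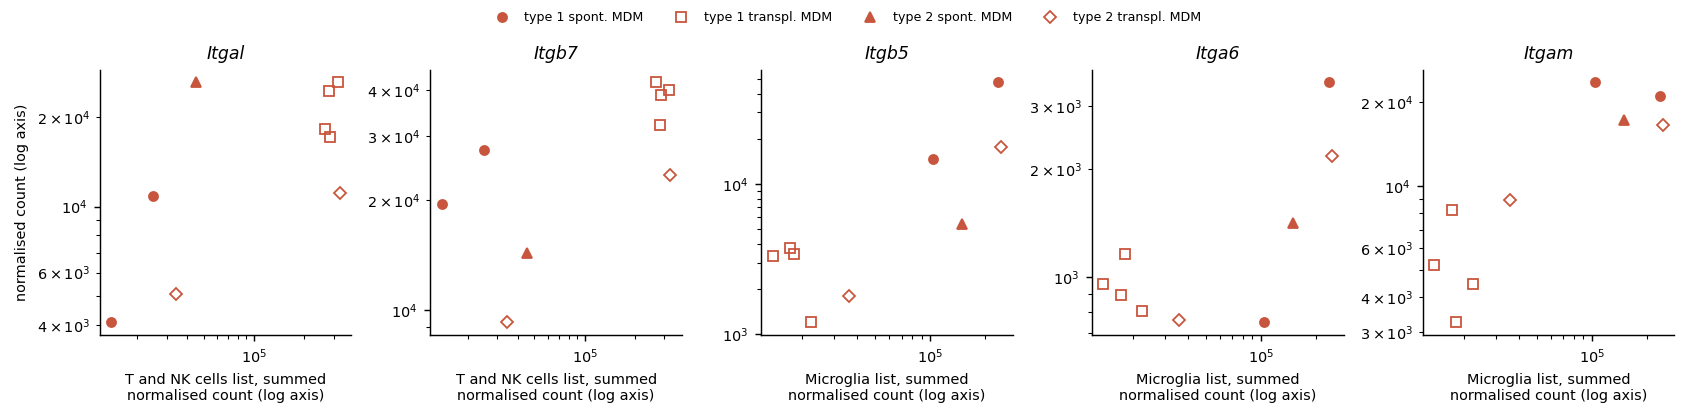
Normalised count of Itgal and Itgb7 against the summed T and NK cell list, and of Itgb5, Itga6 and Itgam against the summed microglia list, in the 9 MDM libraries (both axes log; symbols mark tumour type and model). The 4 libraries with the highest microglia list sums hold the 4 highest Itgb5 and Itgam values, and they also have the lowest T and NK cell list sums.

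The makeup of the β2 family differed between the cell types. Of the summed per-kb level of the α genes that pair with Itgb2, Itgal made up 7.15% to 64.1% in MDM with a median of 39.2%, and 0.742% to 5.22% in microglia with a median of 2.13%. Itgam made up 15.7% to 74.7% in MDM and 53.2% to 96.4% in microglia. Itgax took 7.58% to 44.2% in MDM and 2.32% to 42.2% in microglia, and Itgad stayed under 1% in all libraries. The Itgal shares did not overlap, while those of Itgam and Itgax did. Within MDM, Itgal held 56.1% to 64.1% in type 1 transplanted libraries, 7.15% and 21.2% in type 1 spontaneous ones, 35.0% in the type 2 spontaneous library and 39.2% and 17.7% in type 2 transplanted ones.

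The β genes Itgb1, Itgb2, Itgb3, Itgb5, Itgb7 and Itgb8 were summed per kb, and Itgb4, Itgb6 and Itgb2l were left out. Of this sum Itgb5 made up 48.6% to 72.1% in microglia and 0.996% to 37.0% in MDM. Itgb7 made up 14.3% to 44.8% in MDM and 0.0434% to 1.91% in microglia. Itgb2 took 30.3% to 68.3% in MDM and 22.6% to 43.1% in microglia, and Itgb1 7.48% to 21.8% and 3.46% to 11.8%. The shares of Itgb5 and Itgb7 separated the cell types, and those of Itgb2 and Itgb1 overlapped. These shares are of transcripts and describe no protein at the surface.

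**Figure D4:**
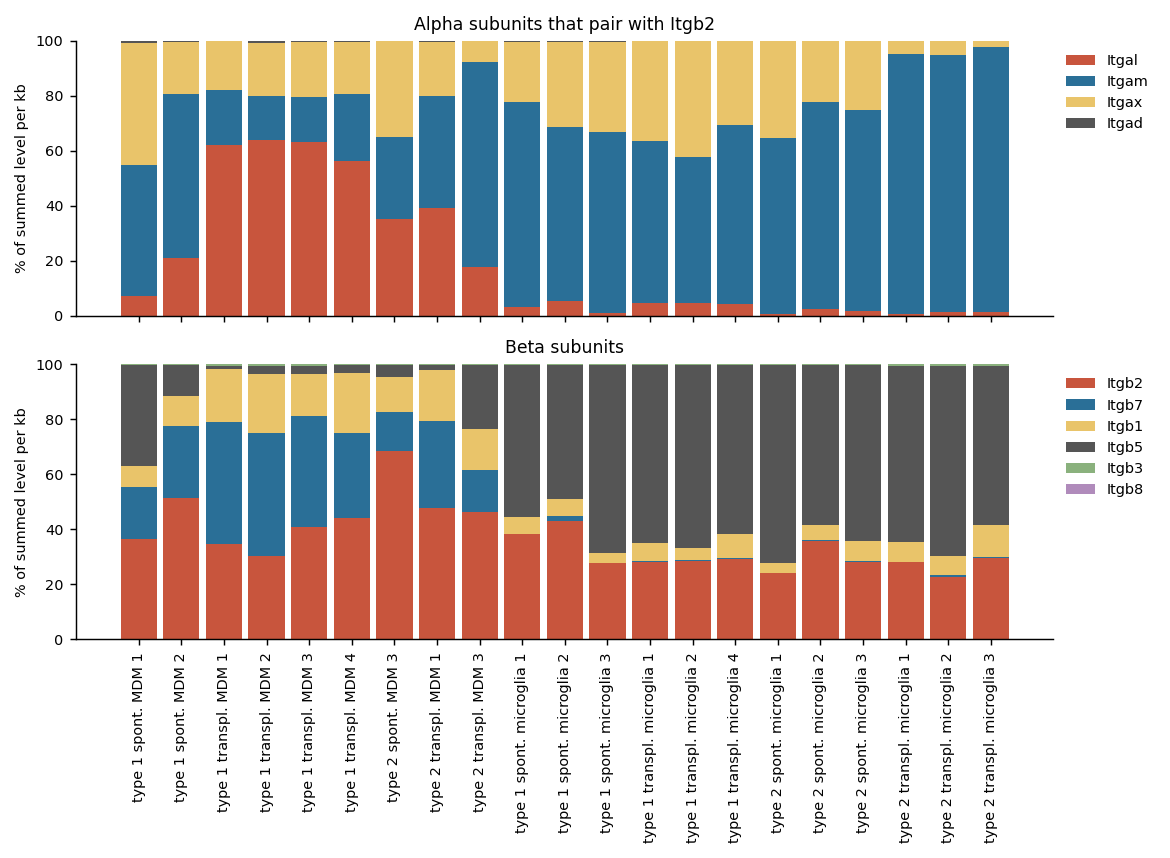
Share (percent) of the summed level per kb held by each α gene that pairs with Itgb2 (top) and by each β gene summed (bottom), for 9 MDM libraries (left) and 12 microglia libraries (right). The β genes summed are Itgb1, Itgb2, Itgb3, Itgb5, Itgb7 and Itgb8. Itgal takes 7.15% to 64.1% of the top bars in MDM and at most 5.22% in microglia, and Itgb5 takes at least 48.6% of the bottom bars in microglia.

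The tumour types were set against each other in microglia, type 2 minus type 1, with 6 libraries each and both models weighted equally. No member was called by limma-trend, in a comparison that called 0.47% of all genes; 3 members (Itgax, Itga6 and Itgal) and 8.89% of all genes had an unadjusted p under 0.05. The median log2 fold change was -0.07 over the members and -0.02 over all genes. Itgax stood at 17205, 7845 and 5078 normalised counts in type 1 spontaneous microglia and 13093, 18347 and 22601 in type 1 transplanted ones. In type 2 it stood at 9551, 5149.9 and 18252 in spontaneous and 2752, 2209 and 1328 in transplanted tumours. The 3 type 2 transplanted libraries were the lowest of the 12, as they were for 2.03% of all genes, and the spontaneous libraries of the tumour types overlapped. The difference over both models was -1.50 ± 0.36 on the log2 scale (limma-trend adjusted p 0.084).

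The interaction of tumour type and model asks whether the tumour types differ by a different amount in each model. For Itgax in microglia it was -3.26 ± 0.72 (unadjusted p 0.00026, limma-trend adjusted p 0.2), which did not pass the threshold. That comparison called 0.0116% of all genes and no member; 2 members (Itgax and Itga4) and 6.32% of all genes had an unadjusted p under 0.05. The interaction of Itga4 was 2.32 ± 0.97 (limma-trend adjusted p 0.7). The summed oligodendrocyte progenitor list was 36.9 to 84.7 in type 2 transplanted microglia and 598 to 2164 in the other 9 microglia libraries, and its part in the Itgax values was not tested. The neutrophil list of these 3 libraries summed to 16.4, 5172 and 889, beside Itgax values of 2752, 2209 and 1328, and its part was not tested either. In the same 3 libraries Itgam made up 93.6% to 96.4% of the β2 partner level and Itgax 2.32% to 5.15%, the lowest Itgax shares among microglia.

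Other members varied among microglia groups without a call. Itga6 was at 14725, 10064 and 10911 normalised counts in type 2 transplanted microglia, above all 9 other microglia libraries at 2739 to 9217, as 1.57% of all genes were (3.6% in either direction), and its difference between tumour types was 0.84 ± 0.33 (limma-trend adjusted p 0.42). Itgal was at 296 to 1894 in type 2 and 240.2 to 4540.0 in type 1 microglia, with overlapping ranges (-1.28 ± 0.54, limma-trend adjusted p 0.48). Itgb5 held 62808 to 124560.0 in type 2 and 67509 to 129235 in type 1 libraries (0.08, 95% interval -0.84 to 1.00, adjusted p 0.98). Between the models of type 2 tumours, Itga4 and Itga6 were higher and Itgax lower in all 3 transplanted microglia libraries than in all 3 spontaneous ones, as 18% of all genes were without overlap in this way.

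Transplanted and spontaneous tumour microglia were then compared over both tumour types. No member was called, against 1.84% of all genes; 2 members (Itgav and Itgb1) and 19.4% of all genes had an unadjusted p under 0.05. The members' median log2 fold change was 0.60, against 0.04 over all genes. Itgav ranged from 1589 to 4498 normalised counts in transplanted and 368 to 3318 in spontaneous tumours, with a log2 fold change of 1.20 ± 0.41 (limma-trend adjusted p 0.13). Itgb1 ranged from 9498 to 19159 and from 4201 to 15813 (0.72 ± 0.27, limma-trend adjusted p 0.17). Type 2 spontaneous library 3 had the highest value of both genes among the 6 spontaneous libraries, and without it both were called (Itgav 1.49, adjusted p 0.031; Itgb1 0.94, adjusted p 0.032). In the same comparison 7 of 15 T and NK cell genes were higher and 2 of 12 MDM list genes were lower in transplanted tumours, and their part in these differences was not tested.

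In MDM of type 1 tumours, the 4 transplanted libraries were compared with the 2 spontaneous ones. Itgb5 and Itgam were lower in transplanted tumours and no member was called higher, in a comparison that called 13.7% of all genes, 5.79% higher and 7.96% lower, and 26.6% at an unadjusted p under 0.05. The members' median log2 fold change was -0.31, against 0.03 over all genes. Itgb5 stood at 47824 and 14622 normalised counts in spontaneous tumours and at 1199, 3427, 3336 and 3777 in transplanted ones. All 4 transplanted libraries lay below both spontaneous libraries, as did 19.3% of all genes, and the log2 fold change was -3.30 ± 0.66 (limma-trend adjusted p 0.0027). Itgam stood at 21008 and 23634 in spontaneous and 4483, 3253, 5209.6 and 8231 in transplanted libraries. Its groups did not overlap either, and the log2 fold change was -2.16 ± 0.52 (limma-trend adjusted p 0.01).

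Both calls rested on 2 spontaneous libraries. With either left out, the arm holds 1 library, which is assumed to vary like the other groups. Without type 1 spontaneous MDM library 1 the difference of Itgb5 was -2.45 (limma-trend adjusted p 0.056), and without library 2 that of Itgam was -2.07 (adjusted p 0.096). The all-gene median shifted by 0.51 here when libraries were rescaled to an equal total, and the share of higher calls went from 42.1% to 75.5%; on that scale the log2 fold change of Itgam was -1.62 (adjusted p 0.06), while Itgb1 was called higher (1.54, adjusted p 0.033). In the same comparison 9 of 12 microglia list genes were lower and 0 higher, and 11 of 15 T and NK cell and 8 of 9 B cell genes were higher and 0 lower. The sums of the lists did not overlap between these groups: 104399 and 235489 against 13782 to 22351 for microglia, and 13956 and 24798 against 267992 to 319074 for T and NK cells. The part of these cells in the Itgb5 and Itgam differences was not tested.

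Some members were ordered by model in type 1 MDM without passing the test. Itgal was at 4079 and 10896 normalised counts in spontaneous and 17163 to 26271 in transplanted libraries, Itgb7 at 19497 and 27503 and 32253 to 42229, and Itgb1 at 10885 and 16107 and 21710.1 to 32336, each without overlap, as 20.4% of all genes lay higher. The log2 fold change of Itgb1 was 1.00 ± 0.41 (limma-trend adjusted p 0.12). Itgax was at 17127 and 6666 in spontaneous and 3494 to 5667 in transplanted libraries (-1.26 ± 0.54, limma-trend adjusted p 0.14). Non-overlap was common, at 39.6% of all genes for 4 libraries against 2.

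Type 2 and type 1 transplanted tumour MDM were compared as 2 libraries against 4. No member was called, against 5.91% of all genes; 1 member (Itgam) and 21% of all genes had an unadjusted p under 0.05. The members' median log2 fold change was -0.13, against -0.03 over all genes. Itgam was at 8931 and 16536 normalised counts in type 2 and 3253 to 8231 in type 1, with a log2 fold change of 1.28 ± 0.52 (limma-trend adjusted p 0.16). Itgb7 (23505 and 9259.9), Itgal (11094 and 5083) and Itgb1 (19431 and 12837) lay below all type 1 transplanted libraries and Itgam above them, where 33.6% of all genes did not overlap. The type 2 libraries differed from each other in their lists: T and NK cells summed to 325749 in library 1 and 34419 in library 3, and microglia to 35855 and 245626. This comparison shares its type 1 transplanted libraries with the model comparison, and so a high or low value there enters both.

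Whether the difference between MDM and microglia itself varied was tested by interactions. By tumour type no member was called, against 0.0871% of all genes, and 1 member (Itgax, 1.41 ± 0.59, limma-trend adjusted p 0.33) and 13% of all genes had an unadjusted p under 0.05. By model no member was called, against 2.24% of all genes, and 3 members and 17.3% of all genes had an unadjusted p under 0.05. The 3 were Itgam (-2.04 ± 0.57, limma-trend adjusted p 0.07), Itgb5 (-1.91 ± 0.72, adjusted p 0.18) and Itgax (-1.45 ± 0.59, adjusted p 0.22). Leaving out 1 library at a time gave adjusted p 0.02 to 0.16 for Itgam, which was called without type 1 spontaneous microglia library 2 (-2.22), type 2 spontaneous microglia library 3 (-2.31), type 2 spontaneous MDM library 3 (-2.58) or type 2 transplanted MDM library 3 (-2.26). Itgb5 was called without type 2 spontaneous MDM library 3 (-3.89, limma-trend adjusted p 0.02). Without type 2 transplanted MDM library 3, which leaves 1 library in that group, it was -2.73, also larger in size than over all libraries. Type 2 spontaneous library 3 is the only MDM library of its class. Without it the interaction covers type 1 tumours alone, so its values for Itgam (-2.58) and Itgb5 (-3.89) are of another contrast.

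Other genes of the integrin system were read from lists, in MDM against microglia, where 42.7% of all genes were called with a median log2 fold change of 0.07. Of 17 other integrin subunits 14 were tested, and 8 were higher and 2 lower in MDM (median log2 fold change 1.85). Itgae, the αE partner of Itgb7, stood at 107 to 3408 normalised counts in MDM and 18.6 to 272 in microglia (3.55 ± 0.47, limma-trend adjusted p 8.1e-06), and Itga2, a collagen-binding subunit, at 20.8 to 1297 and 0 to 19.0 (6.00 ± 0.71, adjusted p 2.2e-06). The lower ones were Itga9 (-2.39 ± 0.37, adjusted p 4e-05) and Itgb3, another partner of αV (-0.95 ± 0.28, adjusted p 0.011). In type 1 MDM by model, Itgae (2.97 ± 0.87, adjusted p 0.029) and Itga2 (4.56 ± 1.31, adjusted p 0.026) were higher in the transplanted libraries rich in T and NK cell transcripts, and the fibronectin-binding Itga5 was lower (-3.23 ± 0.77, adjusted p 0.0093).

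Of 21 tested ligand genes 5 were higher and 7 lower in MDM (median -0.23). Icam2, which binds LFA-1, was higher (2.96 ± 0.24, limma-trend adjusted p 3.3e-08), as was Cdh1, the E-cadherin that binds αEβ7 (8.38 ± 0.93, adjusted p 9.6e-07), while the junctional adhesion genes Jam3 (-3.98 ± 0.37, adjusted p 1.4e-07) and Jam2 (-5.31 ± 0.50, adjusted p 1.5e-07) were lower. By model, 3 of the 21 were lower and 18 not called in microglia (1.84% of all genes were called), and 7 were lower, 1 higher and 13 not called in type 1 MDM (13.7% of all genes). Spp1, which encodes osteopontin, an αV ligand, was lower in both (-5.27 ± 0.56, limma-trend adjusted p 5.5e-05 and -6.72 ± 0.84, adjusted p 1e-04).

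Of 29 tested genes for activation and adaptors, 10 were higher and 3 lower in MDM (median 0.34), where 42.7% of all genes were called. Cytip, a cytohesin-binding regulator of LFA-1 adhesion, was higher (5.28 ± 0.30, limma-trend adjusted p 1.8e-09), as were the T cell adaptor gene Skap1 (7.27 ± 0.67, adjusted p 1.3e-07) and the focal adhesion gene Zyx (2.51 ± 0.24, adjusted p 1.8e-07). Tln2, the less common talin, was lower (-4.06 ± 0.37, adjusted p 1.1e-07). Of 17 kinase and signalling genes 8 were higher and 4 lower (median 0.21), with the Src-family gene Fyn (2.85 ± 0.30, adjusted p 5.1e-07) and the myeloid Fgr (2.35 ± 0.26, adjusted p 9.3e-07) higher. In type 1 transplanted against spontaneous MDM 4 of these 17 were lower and 1 higher, where 13.7% of all genes were called. Among the lower were the B and myeloid cell kinase gene Btk (-1.26 ± 0.21, limma-trend adjusted p 0.00081) and the Src-family gene Lyn (-1.80 ± 0.38, adjusted p 0.004).

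Tetraspanins and other partners that sit beside integrins in the membrane were mostly lower in MDM, 7 of 10 lower and 1 higher (median -1.18). Cd81 (-3.59 ± 0.26, limma-trend adjusted p 1.3e-08) and Cd9 (-2.39 ± 0.20, adjusted p 4.5e-08) were among the lower, and Cd47, which binds αVβ3, was the higher one (1.27 ± 0.20, adjusted p 4.8e-05). Of 6 selectin genes and ligands 3 were higher and 1 lower (median 2.58). Selp, the P-selectin gene (6.49 ± 0.84, limma-trend adjusted p 5.7e-06), and Cd44, a hyaluronan receptor gene (3.38 ± 0.38, adjusted p 1e-06), were among those higher in MDM, and Selplg, which encodes the ligand of P-selectin, was lower (-1.03 ± 0.22, adjusted p 0.00077). Several of these genes are also expressed by lymphocytes, whose list was higher in MDM, and that part was not tested.

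The genes with the most similar profiles were found by the mean absolute difference of centred log2 values over the 21 libraries, among 11962 genes with a mean of at least 50. Those closest to Itga4 were Cytip (0.56), S100a11 (0.62) and Unc119 (0.65), against a median of 2.76 over all genes. Traf1 (0.55) lay closest to Itgb7, followed by Itga4 itself (0.72) and Grap2 (0.72). For Itgal the nearest were Fyn (0.73), Lrrc8c (0.74) and Slc1a5 (0.75), for Itgam Cyfip1 (0.27), Stard8 (0.31) and 2510009E07Rik (0.34), and for Itgb5 Marcks (0.40) and Tpbgl (0.41). Among the members the closest pair was Itga6 with Itgam (0.56). The profiles share libraries and their makeup of cell types, and the distances are a description.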

How the data were processed

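The submitters' processing notes name STAR 2.7.8a, DESeq2 (without a version) and the build mm10; the counting program is not given in the sources used here. Per the labels' protocols, libraries were made with SMART-Seq v4 from total RNA. The deposited values are on a log2-like scale with a shared floor of 4.22, so the planned choice between log2 values and normalised counts was settled from the table: the authors' transformation was inverted in closed form, which gave whole reads for 100% of values (within 0.001) with 1 size factor per library. Normalised counts are these reads divided by that factor.

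limma 3.58.1 (R 4.3.3) was fitted to log2(normalised count + 1) of 17216 genes with 8 group means, and checked on simulated data. Other settings tried were other pseudocounts, filters, scalings and weights, voom, a replicate block and left-out libraries. The member genes, gene lists and tests were chosen with earlier results of these data known. Genes named beside the members are up to 4 called genes of a list with the smallest p, other integrin subunits, the 3 nearest profiles, and marker genes. A few genes that this rule selects are not reported here. Lengths are exon unions of GENCODE M21 (GRCm38). Python 3.11.15 with numpy 2.4.6, pandas 2.3.3 and matplotlib 3.10.9 made the levels and plots.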

Additional observations from a re-analysis of the deposited data

Results flagged for a closer look

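Itgb5 in type 1 transplanted MDM held 1 library far from the other 3. Library 1 stood at 1199 normalised counts and the other libraries at 3336 to 3777, and on the log2 scale the gap was 0.892 of the group's whole range. Chance alone marks about 1 in 20 groups by this measure. It was applied to each of the 10 members in this group, and only Itgb5 was marked. Library 1 had the highest summed microglia list of the 4, 22351 against 13782 to 18100, and the highest neutrophil list, 6159 against 407 to 1051. The part of these cells in its Itgb5 value was not tested.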

How the results depend on the processing

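In MDM against microglia the count of called members was 7 in every fit that left out 1 library and 5 to 8 over the other alternatives. The sign of Itgax, never called there, turned after rescaling to the same total (0.088), without the 5 MDM libraries (0.24), without those and 3 microglia libraries together (0.40, chosen after seeing the data), and without type 1 spontaneous MDM library 2 or type 2 transplanted MDM library 3 (both 0.023); over all fits without 1 library it ran from -0.49 to 0.023. With array weights 2 members were called by tumour type in microglia (Itgax and Itgal), 1 by model in microglia (Itgav), 1 in the interaction of type and model (Itgax) and 1 in that of cell type and model (Itgam). Quantile normalization called 4 members in type 1 MDM by model. For array weights, quantile normalization and the fits without 1 library, the share of all genes called is not given here. Their member counts therefore cannot be set against it. Leaving out 1 library gave 0 to 2 members by model in microglia, 0 to 1 by type in transplanted MDM (1 without type 2 library 1, with 1 library then left in that arm), 1 to 2 by model in type 1 MDM, and 0 to 2 in the interaction of cell type and model. The labels do not say whether MDM and microglia of the same number came from the same tumour. Deviations of same-numbered libraries from their group means correlated at 0.04 to 0.24, over 0.1 in 2 of 7 pairs. All 14 of 14 libraries correlated best with their own number, a weak hint from the data. In an MDM group of 2 libraries the deviations mirror each other, so these 14 outcomes are not independent. With the replicate block as a random effect, every count of called members was as without it, and 45.4% of all genes were called in MDM against microglia. With the block as a fixed term 39.3% of all genes were called, and 3 members were higher and 4 lower in MDM. Itgav was called (-0.93, limma-trend adjusted p 0.0047) and Itgb1 was not (0.50, adjusted p 0.063). Without type 2 spontaneous MDM library 3 that class held no MDM, and comparisons that use its MDM covered fewer tumour classes. Groups of 1 or 2 MDM libraries limit the precision of the MDM comparisons. The lowest level of any member, 29.4 normalised counts, was that of Itga4 in type 1 transplanted microglia library 1.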
